A study of Mus musculus with 3 samples.

Results

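A set of 10 genes was followed across 3 arrays of NIH3T3 cells, namely Trp53, which encodes p53, and 9 of its direct targets, Cdkn1a, Mdm2, Ccng1, Bbc3, Bax, Trp53inp1, Sesn1, Phlda3 and Zmat3. They were chosen by name, as well-known targets, with earlier results of these data known. All of their probes were taken, which gave 12 probes of 10 genes among the 27229 probes that could be tied to 20656 genes, out of 55681 probes on the array. NIH3T3 is an established line of mouse embryonic fibroblasts. The cells were grown to confluence in serum-containing medium and collected after 24 h with 20 µM AR7, with 20 µM BMS614, or without a compound (None). AR7 is a small molecule that binds the retinoic acid receptor alpha and activates chaperone-mediated autophagy, and BMS614 is a selective antagonist of the same receptor. Both compounds were dissolved in DMSO, and whether the None culture received the solvent is not given in the sources used here. Each condition is 1 array of 1 culture, so no difference below has a replicate check and no p-value is given.

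p53 is a transcription factor that is held at a low level by constant destruction and is stabilised when DNA is damaged or the cell is otherwise stressed. Its control lies largely in the protein, so its activity is commonly read from its targets and not from its own mRNA. Some targets stop the cell cycle, some trigger cell death, some repair damage or handle oxidants, and others, with Mdm2 as the best known, switch p53 off again. NIH3T3 cells are known to lack the Cdkn2a locus, whose Arf product inhibits Mdm2. The Cdkn2a probe was not well above background on any of the 3 arrays.

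p53 binds a 10-base motif, usually as a pair of copies with a short gap or none between them. To show what the regulatory sequence near these genes looks like, the 250 bases before each annotated start were taken from RefSeq (GRCm38.p6). The table used holds 12 such windows for 8 of the 10 genes, with none for Trp53inp1 and Zmat3. The p53 motif was searched on both strands, which for this motif is a single search because its consensus reads the same on either strand. A pair was counted with at most 2 mismatches in all, an intact 4-base core in each copy and a gap of at most 13 bases. The 3 windows that held a pair are shown, with the bases of 1 pair in capitals, each read on the strand of its gene.

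Cdkn1a, chr17:29090729-29090978, plus strand: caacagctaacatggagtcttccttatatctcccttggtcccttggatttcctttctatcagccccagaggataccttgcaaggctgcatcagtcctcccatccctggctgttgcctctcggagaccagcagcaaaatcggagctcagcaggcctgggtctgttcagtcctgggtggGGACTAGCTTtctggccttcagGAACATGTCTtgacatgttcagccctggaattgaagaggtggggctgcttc
Bax, chr7:45466899-45467148, minus strand: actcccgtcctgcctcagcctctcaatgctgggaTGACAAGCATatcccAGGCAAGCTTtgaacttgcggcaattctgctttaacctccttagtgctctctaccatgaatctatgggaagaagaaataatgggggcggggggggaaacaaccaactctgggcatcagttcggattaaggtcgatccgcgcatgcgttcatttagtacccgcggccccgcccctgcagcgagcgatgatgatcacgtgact
Sesn1, chr10:41887189-41887438, plus strand: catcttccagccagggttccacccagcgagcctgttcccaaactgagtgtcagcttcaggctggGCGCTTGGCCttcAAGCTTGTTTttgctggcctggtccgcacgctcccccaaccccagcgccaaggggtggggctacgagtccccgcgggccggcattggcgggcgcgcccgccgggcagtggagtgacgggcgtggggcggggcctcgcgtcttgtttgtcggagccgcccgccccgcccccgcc

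The Cdkn1a window held the closest matches. Its capitals mark a pair with 0 mismatches and a gap of 12 bases, from -73 to -42 relative to the start. The second copy of that pair also begins a pair with no gap, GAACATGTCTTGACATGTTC, from -51 to -32 with 1 mismatch. The pairs marked for Bax (-216 to -192) and Sesn1 (-186 to -164) each had 2 mismatches. Such a pair was thus in 3 of the 12 windows, and in 1.75% of all 32851 windows of this length. A single exact motif was in 6 of the 12 windows, each of another gene, and in 7.13% of all windows. Besides the 3 shown, these were Trp53 (GGACTTGCCC, first base at -75), Mdm2 (GAACTTGCCT, at -186) and Ccng1 (GGGCAAGCCT, at -185). A match is a string of letters and not a measured site. The other window of Cdkn1a (chr17:29093519-29093768), the other window of Sesn1 (chr10:41810324-41810573), the 3 windows of Bbc3 and the window of Phlda3 held none.

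Levels are given as log2 of the normalized spot intensity, and differences as log2 differences between 2 arrays. The error of a difference is the SD between repeated spots of one probe on the same pair of arrays, taken from 287 probes printed 10 times, at the brightness of the gene in question and divided by the square root of its number of spots. It covers the spot and the scan only, and neither the culture nor the RNA. All 12 probes were well above background on all 3 arrays. At the 75th percentile of spots, the unnormalized intensity was 780.5 on the AR7 array, 909 on the BMS614 array and 692 on the None array, and 34137, 34460 and 30873 probes were well above background. All 8 fibroblast markers were well above background on the 3 arrays, with Col3a1 dim (5.23 to 5.57). Of 8 markers of other cell types, Epcam, Alb and Gfap were well above background on no array and Ptprc on 2, and Cdh1, Pecam1, Cd3e and Myod1 on all 3. Myod1, at 6.22 to 6.71, was higher with AR7 (0.49 ± 0.053) and BMS614 (0.43 ± 0.052). Its own 10 spots spread more widely than that error implies. The SD over them was 0.33 with each compound. They ran from -0.09 to 1.07 with AR7 and from -0.23 to 0.76 with BMS614. Cd3e, at 10.08 to 10.34, was lower with BMS614 (-0.18 ± 0.067). The part of these markers in the results below was not tested.

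None of the 10 genes differed by 1.5-fold between any pair of arrays. Of all genes well above background on the 3 arrays, 2.29% did so between AR7 and None, 2.78% between BMS614 and None and 1.82% between AR7 and BMS614. Among genes as bright as these, with a mean level of at least 9, the shares were 0.103%, 0.172% and 0.274%. The differences of the 10 genes from None ran from -0.20 to 0.24 with AR7 and from -0.20 to 0.20 with BMS614. Both comparisons use the same None array, so their likeness is no independent evidence.

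**Figure D1:**
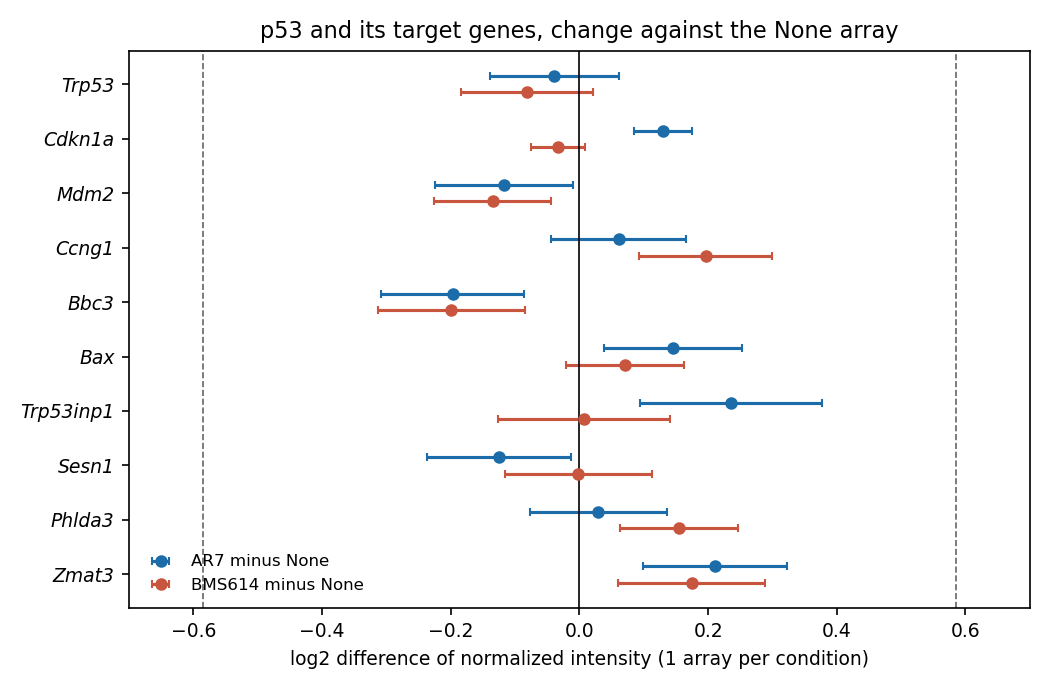
Log2 difference of normalized intensity from the None array for Trp53 and 9 p53 targets, with AR7 in blue and BMS614 in red (1 array per condition). Bars are 2 SD of repeated spots and dashed lines mark 1.5-fold; all 20 points lie between the dashed lines, on both sides of 0.

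With AR7, 7 of the 10 genes lay more than 2 SD of repeated spots from None, 4 higher and 3 lower. Of all genes well above background, 18.7% did so, 9.65% higher and 9% lower, and among genes with a mean level of at least 9 the share was 21.6%. The 4 higher genes were Cdkn1a, Bax, Trp53inp1 and Zmat3, and the 3 lower were Mdm2, Bbc3 and Sesn1. With BMS614, 5 of the 10 did so, with Ccng1, Phlda3 and Zmat3 higher and Mdm2 and Bbc3 lower, against 26.1% of all genes (13.4% higher and 12.7% lower) and 31% of the bright ones. The median difference of the 10 was 0.05 with AR7 and 0.00 with BMS614, and the median of all genes was -0.01 and 0.00. The members moved in both directions with each compound. In bulk RNA such as this, a change in the cells present and a change in RNA per cell cannot be told apart.

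**Figure D2:**
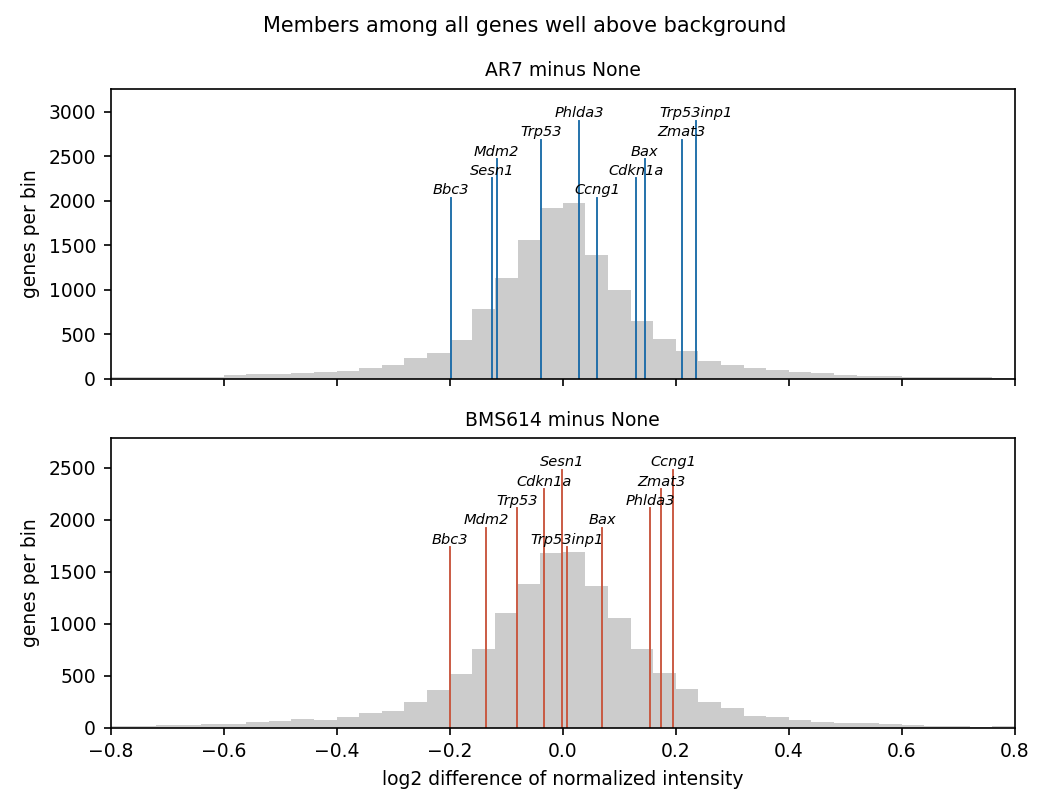
Number of genes per bin of 0.04 (grey) by log2 difference of normalized intensity from the None array, for AR7 above and BMS614 below, over 13820 genes well above background on all 3 arrays. Coloured lines mark p53 and its 9 targets, which spread over the body of the distribution from -0.20 to 0.24 and do not gather on one side.

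Trp53 itself was at 9.14 with AR7, 9.10 with BMS614 and 9.18 on the None array. Its difference from None was -0.04 ± 0.050 (SD of repeated spots, 2 spots) with AR7 and -0.08 ± 0.052 with BMS614, both within 2 SD. After normalization, each of the 2 spots was slightly dimmer on both compound arrays than on the None array.

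Cdkn1a encodes p21, the inhibitor of cyclin-dependent kinases that carries out much of the arrest by p53. Its brighter probe was printed 10 times, which makes it the best measured of these genes. Its level was 11.03 with AR7, 10.87 with BMS614 and 10.90 on the None array. With AR7 it was higher by 0.13 ± 0.022 (1.09-fold), and over the spots the difference ran from 0.09 to 0.26, above 0 at 10 of 10 positions. With BMS614 the difference was -0.03 ± 0.021, within 2 SD, and above 0 at 1 of 10 positions. AR7 exceeded BMS614 by 0.16 ± 0.019, again at 10 of 10 positions. The second Cdkn1a probe was dimmer, at 7.70, 7.65 and 7.50 on the AR7, BMS614 and None arrays. Its differences from None were 0.20 ± 0.168 and 0.15 ± 0.165, so it placed BMS614 above None while the brighter probe did not, though within its error. The 10 positions share 1 culture and 1 labelled RNA per array, and the interval over them says nothing of other cultures.

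**Figure D3:**
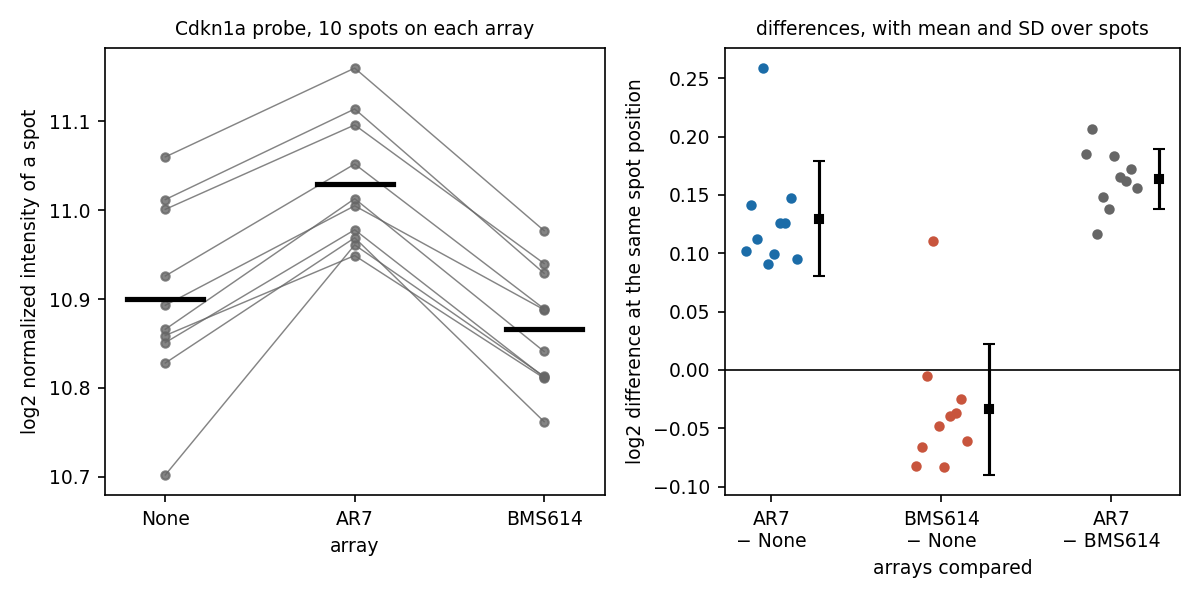
Log2 normalized intensity of each of the 10 spots of the brighter Cdkn1a probe on the 3 arrays (left; lines join the same position, black bars are means) and the differences between arrays at the same position (right; squares and bars are the mean and SD over spots). Every spot is higher on the AR7 array than on the others, by 0.13 on average against None and 0.16 against BMS614.

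The genes that feed back on p53 or act beside it did not move together. Mdm2, the ligase that marks p53 for destruction, was at 13.68 with AR7, 13.66 with BMS614 and 13.80 on the None array. It was lower with AR7 (-0.12 ± 0.054) and with BMS614 (-0.13 ± 0.046), and the compounds differed by 0.02 ± 0.041. Ccng1 encodes cyclin G1, which is linked to Mdm2 through a phosphatase, and was at 12.31, 12.44 and 12.24 on the AR7, BMS614 and None arrays. It was higher by 0.20 ± 0.052 with BMS614, and by 0.06 ± 0.053 with AR7, which is within 2 SD. Zmat3 encodes an RNA-binding zinc finger protein that helps p53 restrain growth. It was at 11.46, 11.43 and 11.25, higher by 0.21 ± 0.056 with AR7 and 0.17 ± 0.057 with BMS614. It was the only gene of the 10 that was higher than None by more than 2 SD with both compounds.

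Among the genes of cell death, Bbc3 (PUMA) and Bax, which act in the mitochondrial pathway, lay on opposite sides of None. Bbc3 was at 11.30 with AR7, 11.30 with BMS614 and 11.50 on the None array, lower with AR7 (-0.20 ± 0.056) and with BMS614 (-0.20 ± 0.057), and the compounds differed by 0.00 ± 0.050. Bax was at 14.59, 14.52 and 14.45. It was higher by 0.14 ± 0.054 with AR7 and by 0.07 ± 0.046 with BMS614, the latter within 2 SD. Trp53inp1, which helps p53 to induce death and takes part in autophagy, was at 10.40, 10.17 and 10.16. It had the largest difference of the 10, higher by 0.24 ± 0.071 with AR7 (1.18-fold), and 0.01 ± 0.067 with BMS614. Its dimmer probe gave 0.34 ± 0.333 and 0.12 ± 0.281. Phlda3, an inhibitor of Akt signalling, was at 14.62, 14.75 and 14.59, higher by 0.15 ± 0.046 with BMS614 and 0.03 ± 0.054 with AR7. Sesn1, a sestrin that restrains growth signalling and protects against oxidants, was at 10.90, 11.02 and 11.03. It was lower with AR7 (-0.12 ± 0.056), and its difference with BMS614 was 0.00 ± 0.057.

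Set directly against each other at the same dose and time, AR7 and BMS614 differed by more than 2 SD in 5 of the 10 genes, against 28% of all genes (14.2% higher and 13.8% lower) and 36.4% of those with a mean level of at least 9. Cdkn1a (0.16 ± 0.019) and Trp53inp1 (0.23 ± 0.059) were higher with AR7. Ccng1 (-0.14 ± 0.039), Phlda3 (-0.13 ± 0.041) and Sesn1 (-0.12 ± 0.050) were lower. For Trp53, Mdm2, Bbc3, Bax and Zmat3 the compounds differed by at most 0.07, within 2 SD.

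A wider set of 57 p53 targets, grouped by role, was listed beside the members, and 46 of them were well above background on all 3 arrays. Their median difference from None was -0.01 with AR7 and -0.02 with BMS614. With AR7, 8 of the 46 were higher and 6 lower by more than 2 SD, and with BMS614 4 were higher and 6 lower. Read against 18.7% and 26.1% of all genes, these are 14 and 10 of 46. None reached 1.5-fold against None with either compound.

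Of the 10 measured genes of arrest and feedback, 4 were higher and 1 lower with AR7, against 9.65% and 9% of all genes, and 0 passed 2 SD with BMS614, against 26.1% of all genes. Plk2, a stress-induced polo-like kinase, was the highest (0.25 ± 0.056 with AR7, 0.09 ± 0.057 with BMS614). Gadd45a, a growth arrest gene induced by DNA damage, was at 10.62 with AR7, 10.51 with BMS614 and 10.42 on the None array, and was higher with AR7 by 0.20 ± 0.071. Rchy1, a ligase that targets p53, was lower with AR7 (-0.12 ± 0.053). The remaining 2 higher genes, Plk3 (0.20) and Trp73 (0.15), are named after their values were seen. Btg2, an antiproliferative gene, gave -0.18 ± 0.112 with AR7 and -0.08 ± 0.110 with BMS614, within 2 SD.

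Of 10 measured genes of death and survival, 1 was higher and 0 lower with AR7, near the 9.65% and 9% of all genes. It was the death receptor gene Fas (0.09 ± 0.040). Fas was lower with BMS614 (-0.09 ± 0.034). With BMS614, Ei24 (0.25 ± 0.073) and Apaf1 (0.23 ± 0.110), which forms the apoptosome, were higher, and the nuclease gene Aen (-0.13 ± 0.046) and Trp53i13 (-0.27 ± 0.048) were lower. With Fas these were 2 higher and 3 lower of 10, against 13.4% and 12.7% of all genes. The 5 genes of this list left out as dim, named for that alone, were Pmaip1 (NOXA), Perp, Eda2r and Trp53i11, well above background on no array, and Gdf15, on 2.

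All 19 genes of DNA repair and metabolism were measured. With AR7, 3 were higher, among them the damage sensor Xpc (0.14 ± 0.071) and Steap3 (0.13 ± 0.053), and 5 were lower, among them the bypass polymerase gene Polh (-0.23 ± 0.112) and the repair enzyme gene Mgmt (-0.20 ± 0.056), against 9.65% and 9% of all genes. The probes of Steap3 disagreed: a dimmer probe gave -0.02 with AR7 and -0.36 with BMS614, where the brighter gave 0.06 with BMS614. With BMS614, Ddb2, which recognises ultraviolet damage, was lower (-0.18 ± 0.073), as were Prkab1 (-0.23 ± 0.073) and Mgmt (-0.17 ± 0.057). These 3 lower genes and 1 higher gene of 19 stand beside 12.7% and 13.4% of all genes. The higher gene was Ddit4 (REDD1), an inhibitor of mTORC1 that other stress pathways also induce. Ddit4 was at 12.91 with AR7, 13.50 with BMS614 and 12.97 on the None array, higher by 0.53 ± 0.048 with BMS614 (1.45-fold), and its difference with AR7 was -0.06 ± 0.057. The difference between the compounds, -0.59, was the only one of the wider set past 1.5-fold. Of the secreted and adhesion genes, 7 of 10 were measured and 1 was higher, Thbs1 with BMS614 (0.21 ± 0.073), against 13.4% of all genes. With AR7, 0 of the 7 passed 2 SD, against 18.7% of all genes.

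**Figure D4:**
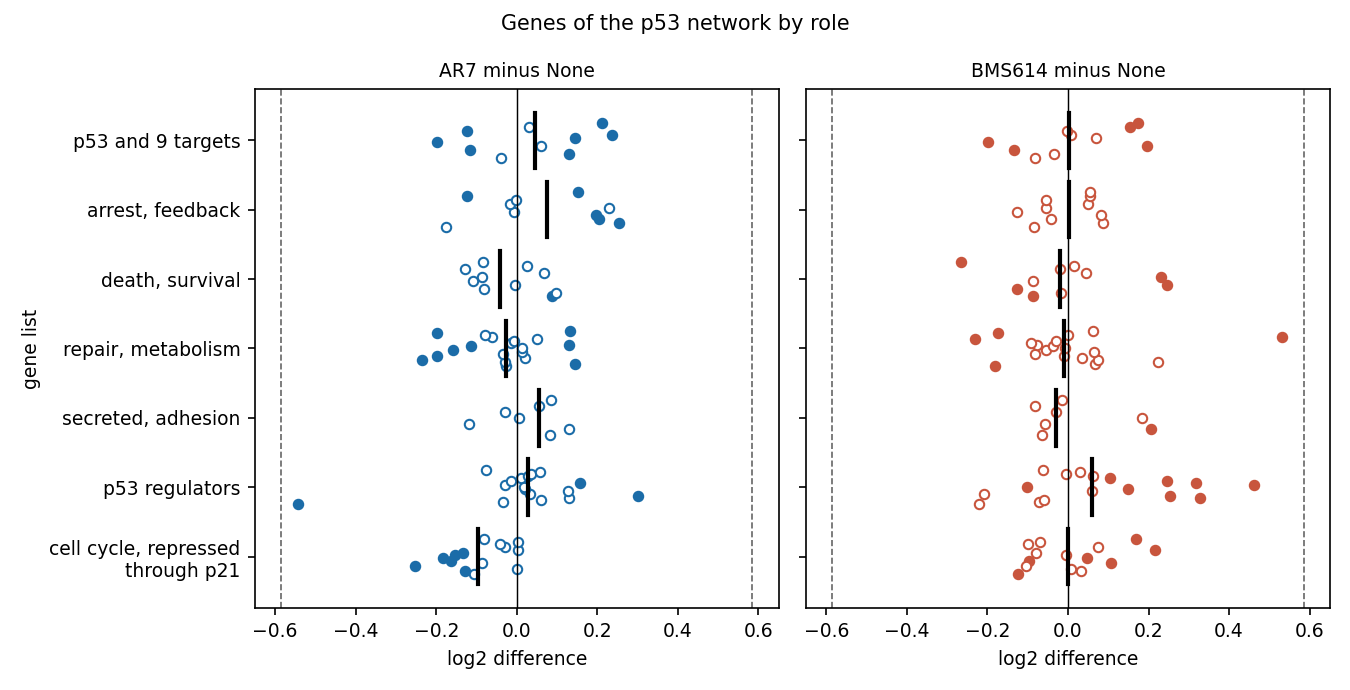
Log2 difference of normalized intensity from the None array for each gene well above background on all 3 arrays, by list, with AR7 on the left and BMS614 on the right. Filled points lie more than 2 SD of repeated spots from 0, black bars are list medians and dashed lines mark 1.5-fold; the cell cycle list lies mostly below 0 with AR7 (median -0.10) and around 0 with BMS614 (median 0.00).

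Regulators of p53 were measured for 17 of 18 genes. With AR7, 2 were higher, Atr (0.30 ± 0.053) and Hipk2 (0.16 ± 0.071), both kinases that activate p53, against 9.65% of all genes. Mdm4, the partner of Mdm2 that represses p53, was the 1 lower gene, against 9% of all genes. Atr was also higher with BMS614 (0.25 ± 0.052), and the compounds differed by 0.05 ± 0.039 for it. The probes of Hipk2 disagreed: a dimmer probe gave -0.05 with AR7 and 0.02 with BMS614, where the brighter gave 0.32 with BMS614. Mdm4 was at 6.41 with AR7, 6.74 with BMS614 and 6.96 on the None array, a difference of -0.54 ± 0.168 with AR7 and, within 2 SD, of -0.22 ± 0.165 with BMS614. A second, dimmer Mdm4 probe gave -0.31 ± 0.333 and -0.25 ± 0.281, both within 2 SD. With BMS614, 7 regulators were higher and 1 lower, against 13.4% and 12.7% of all genes. The coactivator gene Ep300 was the highest (0.46 ± 0.110), followed by the damage kinase gene Atm (0.33 ± 0.073). The probes of Atm disagreed: a dimmer probe printed 10 times differed by -0.01 between BMS614 and None.

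Genes of the cell cycle that p53 represses through p21 and the DREAM complex were the last list, with 14 of 14 measured. With AR7, 6 were lower by more than 2 SD and 0 higher, with a median of -0.10, against 9% of all genes lower. Cdc25c, a phosphatase for entry into mitosis, was lower (-0.25 ± 0.112). Bub1, a kinase of the spindle checkpoint printed 10 times, was at 11.29 with AR7, 11.52 with BMS614 and 11.47 on the None array. At the 9 positions kept on all arrays its difference with AR7 was -0.14 on average, below 0 at 9 of 9. With BMS614, 4 genes of the list were higher, against 13.4% of all genes, among them the proliferation marker gene Mki67 (0.22 ± 0.046) and Mcm5 (0.17 ± 0.046), and 2 were lower, against 12.7%, among them the cyclin gene Ccnb1 (-0.12 ± 0.048), with a median of 0.00. Between the compounds, 7 of 14 were lower with AR7 and 0 higher, with a median of -0.13, against 13.8% of all genes lower. All of the list but Cdc25c had a mean level of at least 9. Among all genes that bright, 10% were lower with AR7 than on the None array, and 17.7% lower with AR7 than with BMS614. The shares for BMS614 against None were 16% higher and 15% lower. Each of these genes differed by less than 1.5-fold.

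The values of the 10 genes were recomputed under 6 other ways of processing. Bbc3 and Zmat3 stayed past 2 SD on the same side of None with both compounds under all 6, as did Mdm2 and Phlda3 with BMS614. Cdkn1a with AR7 ran from 0.11 to 0.16 and passed under 5 of the 6, the exception being the mean over both probes. Trp53inp1 with AR7 ran from 0.22 to 0.29, with the same exception. That setting also ended the calls of both genes between AR7 and BMS614, where the values became 0.11 and 0.23. For Trp53inp1 the difference between the compounds fell to 0.15 with the processed signal and 0.13 in the deposited table, still past 2 SD. Its difference between BMS614 and None rose there to 0.10 and 0.11, within 2 SD. With the processed signal, Mdm2 (-0.07) and Bax (0.10) with AR7 and Ccng1 with BMS614 (0.10) no longer passed 2 SD, and with spike-in scaling Sesn1 with AR7 (-0.11) did not. Bax between AR7 and BMS614 and Cdkn1a with BMS614, both within 2 SD, passed it with the processed signal (0.08 and -0.04), and Bax also with spike-in scaling (0.08). Of the values within 2 SD, Ccng1 and Phlda3 with AR7, Cdkn1a and Sesn1 with BMS614, and Bbc3 between the compounds changed sign under 1 or more.

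**Figure D5:**
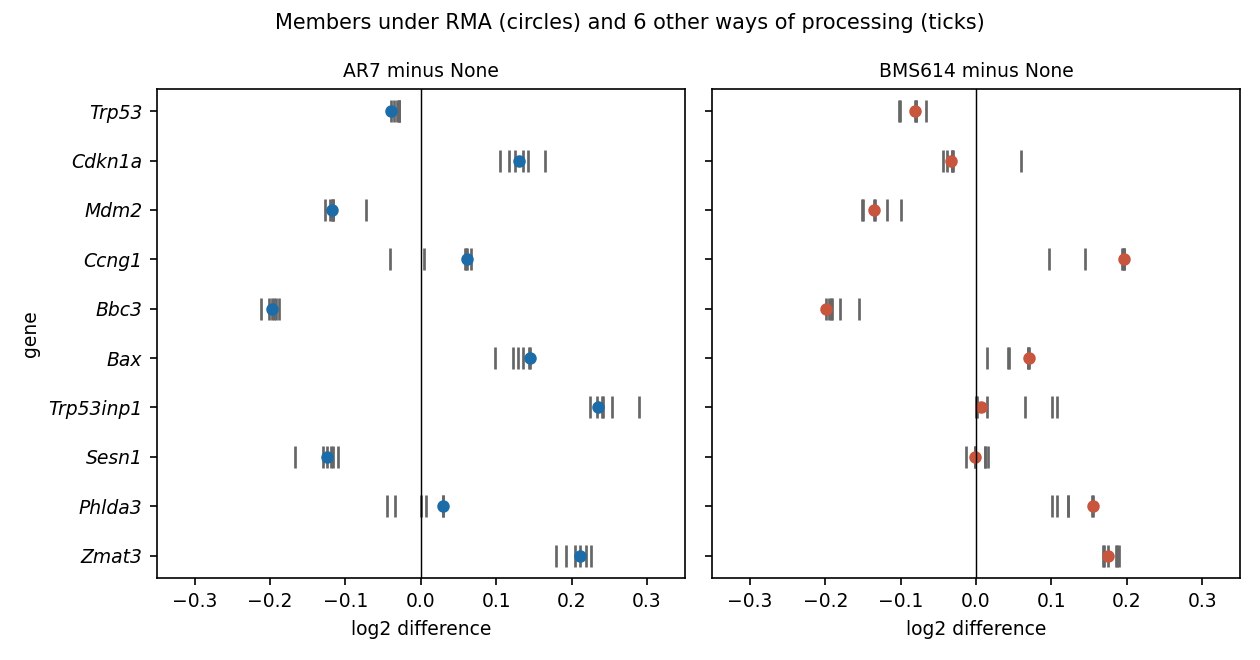
Log2 difference from the None array for each gene, with AR7 on the left and BMS614 on the right. Circles are RMA values and ticks are 6 other ways of processing, with spike-in scaling given relative to the median of all probes; Bbc3 and Zmat3 keep their side of 0 throughout, and Phlda3 and Ccng1 with AR7 do not.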

How the data were processed

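The arrays were Agilent mouse 8x60K arrays, hybridised with Cy3-labelled RNA, 1 per condition. The deposited files hold spot intensity as read by Feature Extraction 10.7.3.1, not normalized between arrays, and a table of intensity values that follow the scanner's background-subtracted values linearly, array by array, with no sign of log scale or centring. The submitters' processing notes name oligo and RMA. Their method was followed without that package: RMA background on the median spot intensity, quantile normalization over the 3 arrays and log2, with control and outlier spots left out and spots of a probe averaged (R 4.3.3, limma 3.58.1, Python 3.11.15, numpy 2.4.6, pandas 2.3.3, matplotlib 3.10.9). Probes were named by RefSeq accession, and a gene was read from its brightest probe. The error was the SD of repeated spots in 10 bins of brightness. Calls were 1.5-fold, or 2 SD of that error, on probes well above background on all arrays. With 1 array per condition no test was possible, and the number of arrays limits the precision. Alternatives were the processed signal at the 75th percentile, normexp with an offset of 50, scaling to the 75th percentile or to spike-ins, the deposited table (values below 16 set to 16) and the mean over probes, and for the counts other thresholds and filters. The members and lists were chosen with earlier results of these data known. From each list, the text names the 2 highest and 2 lowest genes per compound and any past 1.5-fold, with exceptions stated. The comparison with genes of a mean level of at least 9 was chosen after seeing the data.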

Additional observations from a re-analysis of the deposited data

How the results depend on the processing

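For the 10 members, no difference past 2 SD of repeated spots changed sign under the 6 other ways of processing; single genes of the wider lists were not recomputed. Of the members' values, 164 moved by less than 1 SD of repeated spots and 16 by more. The median of the 10 genes with AR7, 0.045, became -0.034 with the processed signal and -0.014 with the deposited table, and with BMS614 the median of 0.003 became 0.062 with the mean over all probes; the causes were not tested. The number of members past 2 SD with AR7 was 7, and became 5 with the processed signal, 5 with the mean over all probes and 6 with spike-in scaling, for causes not tested. It became 4 at 3 SD, by construction of the stricter threshold, while 6.85% of all genes passed it. No member passed 1.5-fold under any alternative. Of all genes, 2.29% passed 1.5-fold with AR7, against 0.138% with normexp, 0.630% in the deposited table and 8.11% with no filter on dim probes; with BMS614 the share was 2.78%, against 0.231%, 0.970% and 8.09%. Spike-in scaling moved the median of all probes by 0.11 with AR7 and 0.25 with BMS614, and values under it are relative to that shift. No paired analysis was possible because AR7, BMS614 and None were hybridised to 1 array apiece, and no array could be left out. Differences smaller than about 2 SD of repeated spots could not be resolved, and variation between cultures was not measured.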
